A study of Mus musculus with 23 samples.

Results

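The contractile apparatus of smooth muscle was followed here through 10 genes, Acta2, Actg2, Myh11, Tagln, Cnn1, Des, Myl9, Lmod1, Synm and Smtn, taken by the gene name that the scanner files give each spot. With each distinct name counted as a gene, they were 10 of the 34741 genes on the array, read by 33 of its 59305 spots and 15 of its 55681 probes. Of the 10, 9 were measured; Lmod1 was too dim. Of the 9 measured genes, all but Smtn varied between mice far more than most genes on the array. The 9 varied together, with a median correlation of 0.95 between pairs. Their means were all lower with quercetin, by 1.08-fold to 1.36-fold, but none of these differences passed the test, and the range of each gene in one diet overlapped that in the other.

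Smooth muscle shortens when myosin filaments pull on thin filaments of smooth muscle actin, after calcium and calmodulin switch on a kinase that phosphorylates the myosin regulatory light chain. Calponin, transgelin and smoothelin sit on the actin filaments, leiomodin seeds new ones, and desmin and synemin form the intermediate filaments that hold the array in place. In the gut these proteins fill the outer muscle coats, the thin muscularis mucosae beneath the epithelium and the fine muscle strands of the villus core, while absorptive epithelial cells hold little of most of them. Their genes are known as targets of serum response factor and its coactivator myocardin, which act through a short promoter element called the CArG box.

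The animals were adult male C57BL/6J mice, with no engineered allele named in the labels. After 3 weeks on normal-fat food, all were kept on high-fat food for 12 weeks, either plain (HF, 12 mice) or containing 0.33% quercetin by weight (HF-Q, 11 mice), a plant flavonol, and all were fasted for 2 to 4 hours before they were killed. The study began with 24 mice and left out 1 quercetin-fed animal. Small intestinal scrapings were profiled on 2-colour Agilent arrays, 1 array for each mouse, with the mouse's own RNA in Cy5 and an equimolar pool of all mice in Cy3. No array had the dyes swapped, there was no group without the high-fat diet, and the labels do not say how deep each scraping went or which stretch of intestine it came from. Every value below is a log2 ratio of a mouse to the pool, so 0 means the pool's level and levels of different genes cannot be set against each other.

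The arrays were alike in quality: 48.6% to 56.6% of probes were well above background. The fit between diets covered 21477 genes, none of which (0% in either direction) passed an adjusted p of 0.05 in limma, the linear model with moderated variances used throughout, and the smallest adjusted p was 0.951. A protocol label names liver as the source of the RNA, while the other labels give small intestine. On all 23 arrays, each of the 12 enterocyte markers was well above background. Of 10 hepatocyte markers, Serpina1a, Fga, Tat, Cyp2e1 and Apoh were so on all 23, Alb on 11, Fgb and Hpx on 2 and Ahsg and Mup3 on 0.

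Each measured gene was well above background on all 23 arrays and saturated on none. Lmod1, which encodes leiomodin, was well above background on 1 of 12 HF arrays and 0 of 11 HF-Q arrays, so its ratios, from -0.25 to 0.20, were not read as levels. Without the filter on dim probes its difference was -0.086 (limma, unadjusted p = 0.114). The probes are strands of 60 bases. Those of Myh11 and Des, and a second probe of Smtn, are printed in full, 5′ to 3′ and in lower case throughout. The first 2 show what was measured for the motor and for the filament that anchors it. Smtn was the gene that varied least, but its values as a gene come from its brighter probe, which is not printed.

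Myh11: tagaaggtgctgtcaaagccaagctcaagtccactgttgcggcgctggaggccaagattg
Des: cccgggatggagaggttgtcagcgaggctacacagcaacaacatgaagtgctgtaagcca
Smtn: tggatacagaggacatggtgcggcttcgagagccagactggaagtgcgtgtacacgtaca

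In the mm9 build that the scanner files use, the Myh11 probe lies at chr16:14202190-14202249 on the minus strand and the printed Smtn probe at chr11:3420834-3420893 on the minus strand. The Des probe lies at chr1:75363404-75363629 on the plus strand, a span longer than the probe itself, so it crosses a junction between exons. Where the probes fall within exons or UTRs was not analysed here.

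The actins form the thin filaments. Acta2, smooth muscle alpha-actin (probe at chr19:34316060-34316119, minus strand), ran from -0.79 through a median of 0.044 to 1.17 in the HF mice and from -1.43 through -0.38 to 1.07 in the HF-Q mice. Of the 11 HF-Q mice, 8 lay inside the HF range and 6 lay below the HF median. The mean was 0.024 ± 0.67 (SD, n = 12) with HF and -0.25 ± 0.81 (SD, n = 11) with HF-Q, a difference of -0.28 ± 0.28 (SE; 95% interval -0.86 to 0.31; limma, adjusted p = 0.952). As a ratio, this is 1.21-fold lower with quercetin, with an interval from 1.82-fold lower to 1.24-fold higher. In a scraping, fewer smooth muscle cells and less RNA per smooth muscle cell cannot be told apart, here or for any gene below.

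Actg2, the gamma-actin of enteric smooth muscle (chr6:83462904-83462963, minus strand), ran from -1.28 through -0.091 to 1.54 in the HF mice and from -2.53 through -0.77 to 1.03 in the HF-Q mice. Its difference was the widest of the 9, -0.44 ± 0.39 (SE; 95% interval -1.24 to 0.36; limma, unadjusted p = 0.271, adjusted p = 0.951), or 1.36-fold lower. Again 8 of 11 HF-Q mice lay inside the HF range, so the diets overlapped over most of their spread.

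Myosin supplies the force. Myh11, the smooth muscle myosin heavy chain, ran from -0.64 through -0.038 to 1.25 in the HF mice and from -1.09 through -0.10 to 0.92 in the HF-Q mice. The difference was -0.21 ± 0.22 (SE; 95% interval -0.68 to 0.25; limma, adjusted p = 0.953), and both medians lay close to the pool. Myl9, the regulatory light chain whose phosphorylation starts contraction (chr2:156607301-156607360, plus strand), spread more widely, from -1.39 through -0.16 to 1.45 in the HF mice and from -2.53 through -0.83 to 1.16 in the HF-Q mice. Its difference was -0.36 ± 0.39 (SE; 95% interval -1.17 to 0.45; limma, adjusted p = 0.954), smaller than the SD of 0.91 among the HF mice alone.

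Of the proteins bound to actin, Cnn1, which encodes calponin, a brake on the myosin motor (chr9:21913058-21913117, plus strand), ran from -1.21 through 0.032 to 1.64 in the HF mice and from -2.34 through -0.60 to 1.28 in the HF-Q mice. The diets differed by -0.33 ± 0.40 (SE; 95% interval -1.15 to 0.48; limma, adjusted p = 0.954). Tagln, which encodes the actin-bundling protein transgelin (chr9:45738097-45738156, minus strand), ran from -0.71 through -0.11 to 0.55 in the HF mice and from -1.14 through -0.45 to 0.43 in the HF-Q mice. Of its 11 HF-Q values, 10 lay inside the HF range, and the difference was -0.22 ± 0.17 (SE; 95% interval -0.58 to 0.13; limma, adjusted p = 0.951).

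Smtn, which encodes smoothelin of contractile smooth muscle, was the narrowest of the 9. On its brighter probe (chr11:3417530-3417589, minus strand) it ran from -0.14 through 0.18 to 0.58 in the HF mice and from -0.27 through 0.079 to 0.56 in the HF-Q mice. The difference was -0.12 ± 0.094 (SE; 95% interval -0.32 to 0.070; limma, adjusted p = 0.951). The second Smtn probe, whose sequence is given above, had a difference of -0.090 ± 0.069 (SE; limma, unadjusted p = 0.202), and its ratios correlated with those of the first at r = 0.78 over the 23 mice.

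Desmin and synemin are the intermediate filament proteins. Des ran from -0.62 through -0.12 to 1.01 in the HF mice and from -1.15 through -0.32 to 0.62 in the HF-Q mice, and the difference of -0.11 ± 0.20 (SE; 95% interval -0.52 to 0.30; limma, adjusted p = 0.974) was the smallest of the 9. Synm (chr7:74877629-74877688, minus strand) ran from -0.72 through -0.093 to 1.50 in the HF mice and from -1.07 through -0.26 to 0.85 in the HF-Q mice, with 10 of 11 HF-Q mice inside the HF range. Its difference was -0.18 ± 0.22 (SE; 95% interval -0.64 to 0.28; limma, adjusted p = 0.955). Synm had 4 further probes: 2 passed the filter, with differences of -0.022 ± 0.15 and -0.11 ± 0.16 (SE) and correlations with the brightest probe of 0.89 and 0.95, and the other two did not pass.

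**Figure D1:**
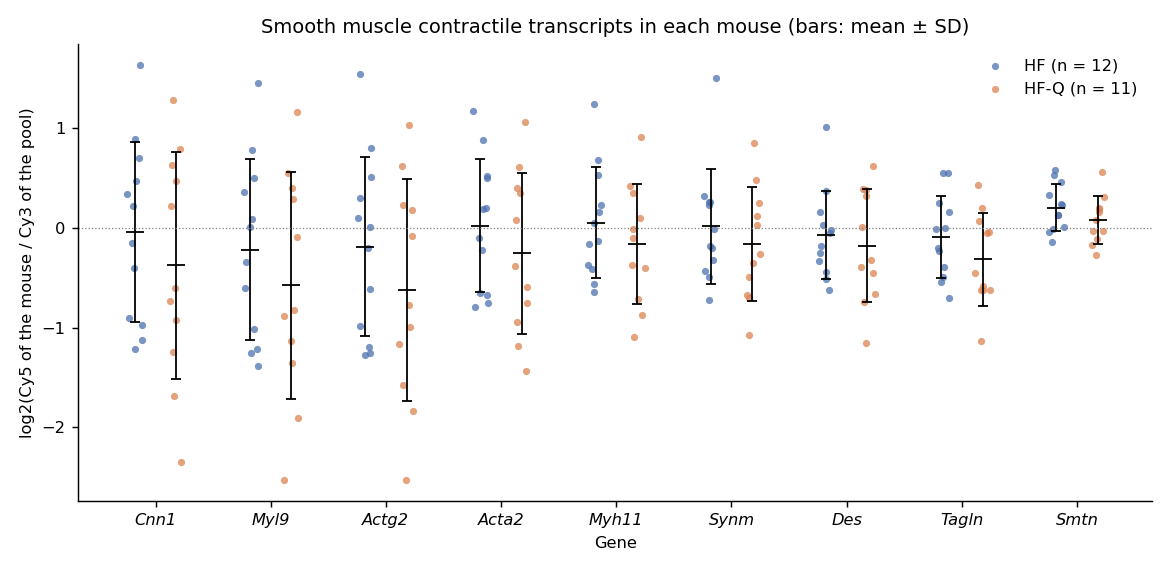
Log2 ratio to the pool (vertical axis) of the 9 measured contractile genes in each of the 12 HF and 11 HF-Q mice. The diets overlap for every gene, and Actg2 reaches from -2.53 to 1.54 while Smtn stays between -0.27 and 0.58.

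All 9 means were therefore lower with quercetin and 0 higher, with a median difference of -0.22, beside a median of -0.0038 over all genes tested, of which 51.9% were below 0. None of the 9 reached an unadjusted p of 0.05, which 2.42% of all genes did in the lower and 2.1% in the higher direction (limma). The 9 genes correlated strongly from mouse to mouse, so their 9 directions are not independent observations. Within each of the 3 slides, Des and Synm were higher with quercetin on slide 1, by 0.068 and 0.11, and all other within-slide differences were below 0. The size depended on single mice: the median difference was -0.14 without HF-Q replicate 2 and -0.32 without HF-Q replicate 10, and that of Des was -0.011 without HF replicate 7.

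**Figure D2:**
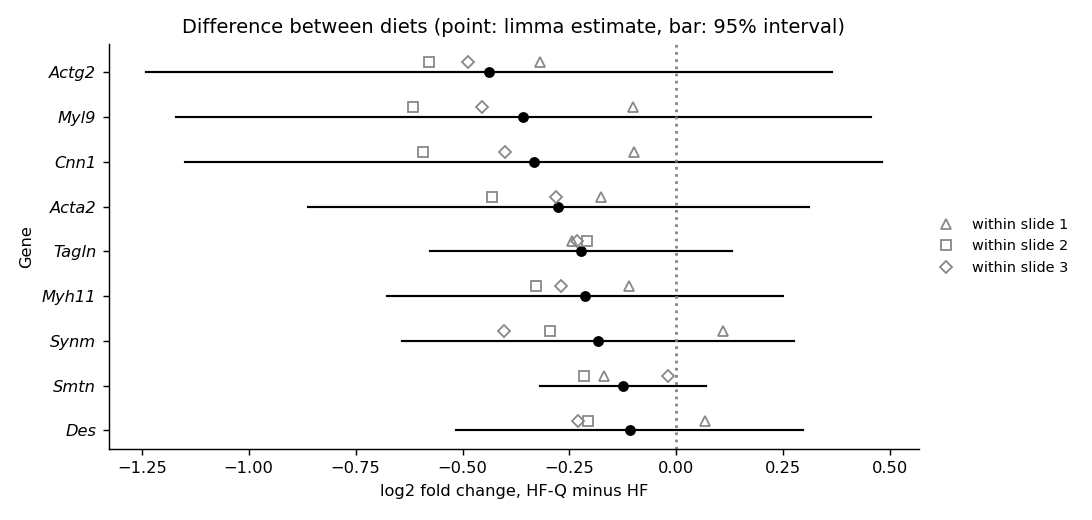
Difference in log2 ratio between diets (HF-Q minus HF, horizontal axis) for the 9 measured genes, with the 95% interval from limma as a bar and the differences within slides 1, 2 and 3 as open marks. Every interval includes 0; Actg2 lies farthest from it at -0.44 and Des nearest at -0.11, and the slide 1 marks of Des and Synm lie above 0.

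The spread between mice was the larger feature of these genes. The SD over the 23 mice was 1.02 for both Cnn1 and Myl9, 1.01 for Actg2, 0.733 for Acta2, 0.578 for Myh11, 0.569 for Synm, 0.499 for Des, 0.445 for Tagln and 0.239 for Smtn. The median SD over all genes tested was 0.163. Ranked among the genes tested, the SD of Cnn1 stood at percentile 99.7, that of Tagln at 96.2 and that of Smtn, the lowest, at 80.1. The second Smtn probe, also well above background on all 23 arrays, had an SD of 0.169, close to the median of all genes tested. The spread of Smtn thus depended on the probe. From the lowest to the highest mouse, Actg2 covered a 16.8-fold range, Acta2 a 6.08-fold range and Smtn a 1.81-fold range.

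The error between spots was small beside this. The Acta2 and Des probes were each printed 10 times on every array. For Acta2 the SD between spots of an array had a median of 0.0494, against 0.733 between mice, a ratio of 14.8. For Des it was 0.0884 against 0.499, a ratio of 5.64. Each probe of the other contractile genes was printed once, and with 1 array for each mouse the error of labelling and hybridisation was not measured.

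**Figure D3:**
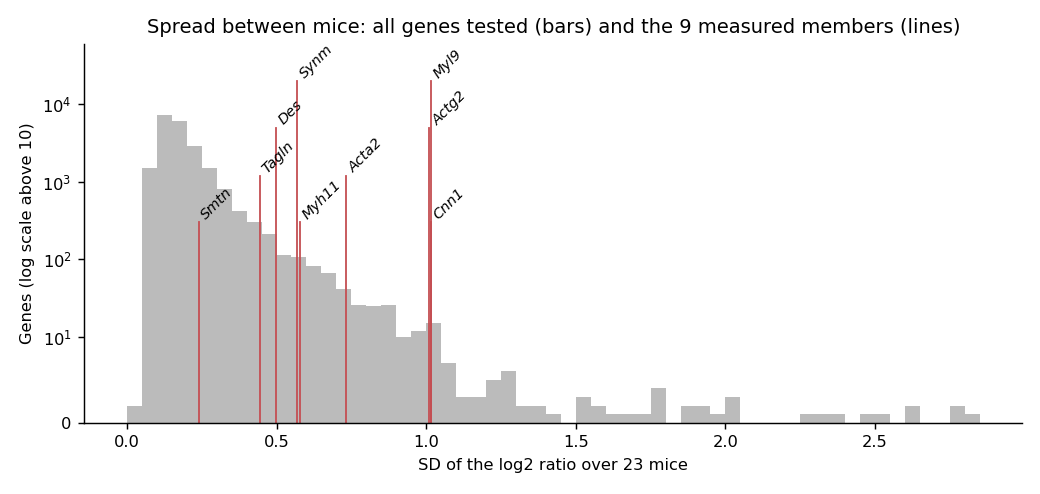
Distribution of the SD over 23 mice of all 21477 genes tested, with the 9 contractile genes marked on the horizontal axis (SD of the log2 ratio). On the probe that stood for each, the 9 genes lie above the median of 0.163 for all genes, from 0.239 for Smtn to 1.02 for Cnn1 and Myl9.

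The same mice were high or low for nearly every gene. HF replicate 7 was the highest mouse for all of the 9 but Tagln and Smtn, for which HF replicate 12 was, and HF-Q replicate 2 was the lowest for all but Smtn. Averaged over the 9 genes, the HF mice ran from -0.78 through a median of -0.033 to 1.18, and the HF-Q mice from -1.49 through -0.47 to 0.88. In the labels' numbering, mice 1 to 6 averaged from -0.78 to -0.14 with HF and from -1.49 to -0.47 with HF-Q, while those from 7 up averaged from 0.077 to 1.18 with HF and from 0.023 to 0.88 with HF-Q. For 8 of the 9 genes the low and the high numbers did not overlap within either diet. The share of all genes tested that split this way was not counted, and the 9 correlated genes are not independent observations. The labels do not say what the number stands for, and its part in the spread was not tested. Across the 23 mice the average correlated with the share of probes well above background at r = -0.11, with the median Cy5 signal at 0.23 and with the number of outlier spots at -0.11, and the part of each was not tested.

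**Figure D4:**
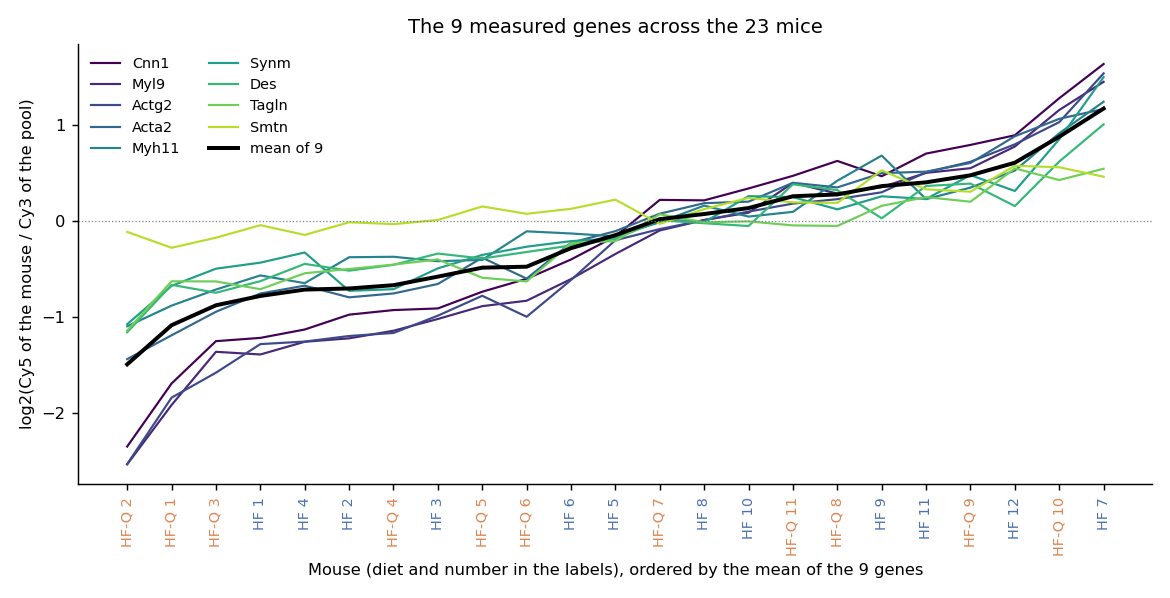
Log2 ratio to the pool of each measured contractile gene (lines) in each of the 23 mice. The lines rise and fall together from mouse to mouse, with HF replicate 7 at the top for 7 of the 9 genes and HF-Q replicate 2 at the bottom for 8.

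Among the 36 pairs of measured genes, Pearson's r over the 23 mice had a median of 0.95. It was highest between Cnn1 and Myl9, at 0.998, and lowest between Des and Smtn, at 0.79. Spearman's rho ran from 0.84 for Tagln with Smtn to 0.995 for Cnn1 with Myl9. Every pair had a two-sided permutation p of at most 2e-05 for Pearson's r, and at most 2e-05 after Benjamini-Hochberg adjustment over the 36 pairs; the smallest that 100000 resamples can give is 1e-05. The permutations treated all mice as exchangeable, although low-numbered and high-numbered mice differed. Pairs of other genes were not computed, so the p does not say how unusual these pairs are. Without the 2 mice farthest from the median the lowest r was 0.79 and the median 0.95. After the means of diet within slide were taken off, r ran from 0.85 to 0.999 with a median of 0.96, over the deviations of all 23 mice together; the groups of diet within slide are too small for an r of their own. All arrays share the reference pool.

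Other genes of the contractile machinery ranged from close likeness to none. Of 29 listed genes of the contractile apparatus and its anchorage, 25 were measured, of which 19 had a difference below 0 and 6 above, and none passed either an adjusted or an unadjusted p of 0.05 (limma; background as above). Their median difference was -0.090. Over the 23 mice, 9 of the 25 correlated at 0.8 or more with the mean of the contractile genes, as 1.36% of the genes outside the set did, and the list ran from -0.39 through a median of 0.53 to 0.99, beside a median of -0.045 for all genes. Tpm2, a beta-tropomyosin, had r = 0.98, the actin crosslinker Flna 0.97, the LIM protein Csrp1 0.95, caldesmon (Cald1) 0.93 and the actin-binding protein Synpo2 0.98, whose second probe, well above background on 10 arrays, had 0.0090. In contrast Tpm1, the alpha-tropomyosin used by many cell types, had r = -0.22, and its 6 probes lay between -0.67 and -0.071. The light chain kinase gene Mylk had -0.26, and -0.32 on its other probe. The smallest unadjusted p in the list belonged to the actin-depolymerising factor Dstn, at 0.14 ± 0.071 (SE; limma, p = 0.0665), and to the actin-filament protein gene Nexn, at -0.20 ± 0.11 (SE; limma, p = 0.0857).

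Of 12 transcriptional regulators of smooth muscle, 9 were measured, 8 with a difference below 0 and 1 above. Of the 9, 1 reached an unadjusted p of 0.05 (limma, background as above). That gene was Mrtfa, a coactivator of serum response factor, at -0.12 ± 0.049 (SE; limma, unadjusted p = 0.0209, adjusted p = 0.951); its second probe, also well above background on all 23 arrays, was at -0.062 ± 0.050 (SE; limma, unadjusted p = 0.226). Klf4, which represses smooth muscle genes, was next at -0.15 ± 0.077 (SE; limma, unadjusted p = 0.0554). Myocd, the coactivator myocardin, was well above background on 3 of 23 arrays and was not measured. Srf had r = -0.085 with the mean of the contractile genes on its brightest probe and 0.55 on its other, Mrtfa 0.29 and 0.19, and Mrtfb 0.59 and, on a probe well above background on 8 arrays, -0.091. Foxf1, a forkhead factor of gut mesenchyme, was the 1 regulator of the 9 past 0.8, at 0.82, and was named after its value was seen.

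Of 22 genes of contraction signalling and ion channels, 15 were measured, 11 with a difference below 0 and 4 above. Of these, 2 reached an unadjusted p of 0.05 (limma, background as above) and neither passed adjustment. Among them the muscarinic receptor gene Chrm3, well above background on 14 of 23 arrays, was at -0.13 ± 0.057 (SE; limma, unadjusted p = 0.0361). Chrm3 had r = -0.081 with the mean of the contractile genes. The calcium channel gene Cacna1c, well above background on 15 arrays, had 0.54. The myosin phosphatase inhibitor gene Ppp1r14a had 0.83, 1 of 3 in the list at 0.8 or more, with Gucy1a1 (0.84) and Gucy1b1 (0.83), the subunits of the nitric oxide receptor, which were named after their values were seen. Chrm2 and Kcnmb1, a muscarinic receptor and a potassium channel subunit, did not pass the filter.

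Over all 13463 named genes well above background on every array, the ones most like the mean of the contractile genes over the 23 mice were Pdlim3 (r = 0.99), Synpo2 (0.98), Tpm2 (0.98), Slc2a4 (0.97), Flna (0.97), Slc24a3 (0.96), Pcp4 (0.96), Arhgef25 (0.95), Psd (0.95) and Ldhb (0.95). Pdlim3 encodes an actin-associated LIM protein, and Slc2a4 the insulin-responsive glucose transporter of muscle and fat. These coefficients are descriptions over 23 arrays that share 1 pool.

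Markers of other cells of the gut wall moved with the contractile genes to different degrees, and their part in the spread or in the diet difference was not tested. Of 8 fibroblast markers, all measured, the median r was 0.79 and 4 reached 0.8; their mean ran from -0.094 to 0.56 in the HF mice and from -0.76 to 0.42 in the HF-Q mice, and all 8 differences were below 0. Among them Col1a1 was at -0.37 ± 0.17, Col1a2 at -0.37 ± 0.16 and Col6a1 at -0.31 ± 0.15 (SE), the 3 that reached an unadjusted p of 0.05 (limma), and none passed adjustment. Of all genes tested, 51.9% had a difference below 0 and 2.42% were lower at that unadjusted p (limma), which is the background for each list here. Of 8 pericyte and vascular smooth muscle markers, 6 were measured, with a median r of 0.78, 5 differences below 0 and a mean from -0.16 to 0.55 in HF and from -0.45 to 0.49 in HF-Q mice. The 7 measured of 8 endothelial markers had a median r of 0.72, and their mean ran from -0.098 to 0.35 and from -0.37 to 0.18. Of their differences, 6 were below 0 and 1 above. Single markers came close to the contractile genes, which had an r of 0.88 or more with the mean of the others: Rgs5 had 0.96 and Abcc9 0.91 in the pericyte list, whose mean had 0.91, and the fibroblast gene Dcn had 0.88. The lowest marker of each list had a negative r: Mcam of the pericyte list -0.14, Fbln1 of the fibroblast list -0.39 and Kdr of the endothelial list -0.44. Pdgfrb and Notch3 of the pericyte list (-0.30 ± 0.13 and -0.23 ± 0.11, SE) and Cldn5 of the endothelial list (-0.21 ± 0.10, SE) also reached an unadjusted p of 0.05 (limma) and did not pass adjustment; the single markers of these lists were named after their values were seen.

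Nerve and pacemaker markers had lower coefficients. The 4 measured of 6 markers of interstitial cells of Cajal, the pacemakers of gut muscle, had a median r of 0.59, all 4 differences below 0 and a mean from -0.053 to 0.42 in HF and from -0.26 to 0.32 in HF-Q mice. Its one gene at an unadjusted p of 0.05 (background as above) was the chloride channel gene Ano1, at -0.23 ± 0.080 (SE; limma, p = 0.00894), likewise named after its value was seen. The 8 measured of 12 enteric neuron and glia markers had a median r of 0.33 and a mean from 0.059 to 0.33 and from 0.048 to 0.28, with 5 differences below 0 and 3 above. Markers of cardiac and skeletal muscle had coefficients around 0: 4 of 10 were measured, their median r was -0.021, and their mean ran from -0.22 to 0.22 and from -0.18 to 0.12. Their differences were 2 below 0 and 2 above. The cardiac actin gene Actc1 and the myoglobin gene Mb were well above background on 0 arrays.

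Markers of epithelium and fat had negative medians. The 12 enterocyte markers had a median r of -0.35 and none above -0.12, and 3 had an r of -0.5 or lower, as 9.37% of genes outside the set did. Their mean ran from -0.11 to 0.57 in HF and from -0.22 to 0.41 in HF-Q mice, with 9 differences below 0 and 3 above. Fabp2, at -0.22 ± 0.084 (SE; limma, unadjusted p = 0.0139), was the 1 that reached an unadjusted p of 0.05 (background as above). It did not pass adjustment and was named after its value was seen. The 5 measured of 7 adipocyte markers had a median r of -0.57, with 3 at -0.5 or lower and a mean from -0.43 to 0.51 and from -0.41 to 0.61. Of these 3, Adipoq was well above background on 13 of 23 arrays, while Fabp4 of the list went the other way, at r = 0.37. The adipocyte differences were 2 below 0 and 3 above. The 10 pancreatic acinar markers had a median r of -0.35 and the widest spread, with a mean from -3.29 to 1.73 in HF and from -3.36 to 2.09 in HF-Q mice. Their r ran from -0.39 to 0.50, the highest being that of Clps. All 10 differences were below 0, with a median of -0.53, and 0 reached an unadjusted p of 0.05 (limma). The 6 measured of 10 hepatocyte markers had a median r of 0.077 and a mean from -0.13 to 0.16 and from -0.15 to 0.26. Of their differences, 4 were below 0 and 2 above.

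**Figure D5:**
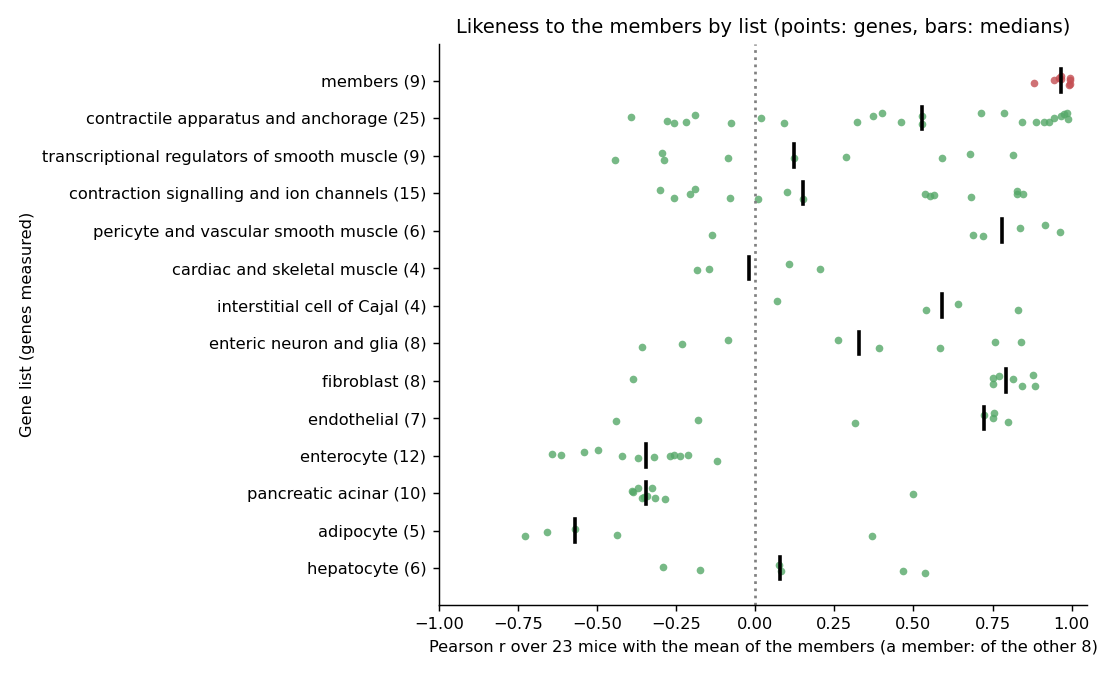
Pearson r over 23 mice of each measured gene with the mean of the 9 contractile genes (horizontal axis), by gene list, each point 1 gene. The contractile genes lie between 0.88 and 0.996 against the mean of the others, fibroblast markers have a median of 0.79 and enterocyte markers one of -0.35.

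The RefSeq promoter windows of build GRCm38.p6, 250 bases before to 50 after each start, held 7 of the 10 genes; Actg2, Myh11 and Tagln were not analysed here. The CArG box, a CC and a GG around a run of A and T, was searched in them; both strands were searched, the motif being its own reverse complement, and overlapping matches were counted. An exact match lay in 1 of the 7 windows, that of Myl9, beside 1.63% of all 32851 windows. With at most 1 mismatch it lay in 4 of the 7, those of Acta2, Myl9, Lmod1 and Synm, beside 21.1% of all windows, and 3 of the 7 held 2 matches, beside 3.70% with 2 or more. These were descriptions of letters in short windows. The matches in Acta2 and Myl9 are shown with 20 bases on each side, because these are an actin and a myosin gene whose ratios correlated at 0.99, with the match in capitals and each strand read along the gene.

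Acta2, first match: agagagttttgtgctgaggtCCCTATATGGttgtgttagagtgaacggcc
Acta2, second match: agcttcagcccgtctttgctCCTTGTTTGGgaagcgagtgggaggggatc
Myl9, first match: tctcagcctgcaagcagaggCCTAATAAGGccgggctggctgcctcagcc
Myl9, second match: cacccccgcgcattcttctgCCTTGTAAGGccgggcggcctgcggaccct

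In GRCm38.p6 the Acta2 stretches lie at chr19:34255428-34255477 and chr19:34255378-34255427 on the minus strand, and the Myl9 stretches at chr2:156775283-156775332 and chr2:156775345-156775394 on the plus strand. Counted from the start of the gene, the matches begin at -84 and -34 in Acta2 and at -161 and -99 in Myl9. The first Myl9 match is the exact one and the other three have 1 mismatch.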

How the data were processed

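The authors deposited the output of Agilent Feature Extraction 10.7.3.1, per the submitters' processing notes, with mean and background spot intensity in both dyes, the scanner's log10 ratio and flags, per the file headers. They also deposited a log2 value table, which served as an alternative; how it was normalized is not stated in these sources. From the deposited intensity, limma 3.58.1 (R 4.3.3) corrected background (normexp, offset 50) and normalized within arrays (loess, control spots at weight 0). Outlier spots were dropped and spots of a probe averaged. Probes were kept whose Cy5 signal passed the scanner's flag for well above background on 50% or more of one diet's arrays, and the probe with the brightest Cy5 signal stood for its gene. Gene names were updated through RefSeq where an accession, symbol or synonym matched. For other probes the name in the scanner files, or the probe's own name where there was none, was counted as a gene. Of the 21477 genes tested, 15146 had a RefSeq name.

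HF-Q was compared with HF over all 23 mice (lmFit and eBayes without covariates, two-sided); p-values of all 21477 genes were adjusted by Benjamini-Hochberg and read at 0.05. The genes and lists were chosen with earlier results of these data known. Named were all 10 genes, chosen landmarks of each smooth muscle list with its 2 smallest p-values, and the 10 genes of highest and 5 of lowest correlation; 2 genes that this rule names are not reported here. Likeness to the mean of the contractile genes leaves a gene of the set out of its own mean and carries no p. The number of arrays limits the precision. The fit was tested on simulated data, with genes drawn independently and planted differences larger than any of the contractile genes. That test does not show how well differences of the size seen here would be found. Replicate numbers were not taken as pairs, since over all genes same-numbered mice deviated from their diet's mean with r from -0.347 to 0.394, not all above 0.1.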

Additional observations from a re-analysis of the deposited data

How the results depend on the processing

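Over 15 other ways of processing and the 23 fits without 1 mouse, the number of genes past the threshold was 0 throughout, and of 342 values of the contractile genes 340 lay below 0. The 2 exceptions were Des (0.068) and Synm (0.11) within slide 1; the cause was not tested. The lowest adjusted p of any contractile gene was 0.853. The median difference ran from -0.33 to -0.11 over the alternatives, and from -0.32 to -0.14 without 1 mouse. With the replicate number as a block (replicate block) it was -0.17 and 0 genes passed; Actg2 was then at -0.35 (limma, p = 0.0908) and Tagln at -0.16 (limma, p = 0.0794). HF replicate 12 has no HF-Q mouse of its number, and these differences were the same in the unblocked fit without that mouse. In that fit Actg2 had p = 0.387 and Tagln p = 0.339 (limma). Slides were scanned in 1 run each, so no separate block for the scan was run. The median SD of the contractile genes, 0.578, was 0.691 with median centring, 0.839 with the scanner's log ratios and 0.679 with the authors' table, and 0.516 to 0.591 without 1 mouse; the cause was not tested. The median r between pairs stayed between 0.943 and 0.962. Without a filter 1586 genes, against 972, reached an unadjusted p of 0.05, and 672 to 1330 did without 1 mouse. Allowing 1 mismatch took the promoters with a CArG box from 1 to 4.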

Other observations

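Among genes well above background on every array, those most opposed to the mean of the contractile genes over the 23 mice included Btnl4, a butyrophilin-like gene (r = -0.83), Gm5441 (-0.83), Scnm1 (-0.82) and Tbx6 (-0.82). The SD of these 4 over the mice ran from 0.0797 for Scnm1 to 0.230 for Btnl4. These coefficients were picked as the extremes of 13463 genes and are given as values only.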
